A study of Mus musculus with 15 samples.

Results

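Fatty acid oxidation and peroxisome genes were followed in ventricular cardiomyocytes of wild-type C57BL/6 mice at postnatal day 1 (P1, 4 libraries), at postnatal day 3 (P3, 4 libraries) and in adults of 8 to 12 weeks (7 libraries). The genes were taken by name from a deposited RPKM table, in which a value is the number of reads per unit of gene length and of library size. They are the symbols that begin with Acad, Acaa, Acox, Acot, Acsl, Hadh, Ech, Eci, Etf, Decr, Ehhadh, Mlycd or Pex and a digit, or that read Crat. The rule found 59 of the 9666 rows of the table, and all 59 passed the filter on low values. The labels give no transgene or treatment for any group, and the muscle cells were isolated from the ventricles before RNA extraction. Whether libraries of a stage came from different animals is not stated, and the spread that enters the p-values may therefore be technical.

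Mitochondrial beta-oxidation shortens a fatty acid that has been activated to an acyl-CoA by repeating the same reactions: an acyl-CoA dehydrogenase makes a double bond, a hydratase adds water, a further dehydrogenase oxidizes the alcohol and a thiolase releases acetyl-CoA. Electrons from the first step pass through the electron transfer flavoprotein to the respiratory chain. Peroxisomes shorten very long and branched chains with oxidases, and are assembled by proteins called peroxins. The heart is known to turn from glucose and lactate towards fatty acids as fuel after birth.

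Promoters are shown for a gene pair whose ratio is described below. Hadha and Hadhb encode the alpha and beta subunits of the mitochondrial trifunctional protein and lie head to head on chromosome 5. The start sites of the RefSeq windows used here, 30154980 and 30155253, are 273 bases apart. In GENCODE the genes begin closer together, at 30155162 for Hadha and 30155248 for Hadhb, so the distance depends on the start site taken. The promoter windows of Hadha and Hadhb, each of 250 bases before to 50 after these RefSeq start sites, share 228 bases. The window of Hadhb, chr5:30155003-30155302 on the plus strand (RefSeq, GRCm38.p6), has the shared bases in capitals.
Hadhb: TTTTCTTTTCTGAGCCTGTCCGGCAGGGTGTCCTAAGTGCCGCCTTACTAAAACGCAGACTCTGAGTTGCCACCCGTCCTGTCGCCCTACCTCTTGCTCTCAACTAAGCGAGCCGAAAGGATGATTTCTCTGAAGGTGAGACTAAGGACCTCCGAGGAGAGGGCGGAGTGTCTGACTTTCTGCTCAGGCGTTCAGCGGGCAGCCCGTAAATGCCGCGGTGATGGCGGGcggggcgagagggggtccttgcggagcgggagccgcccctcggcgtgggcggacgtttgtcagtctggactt
Windows were found for 47 of the 59 genes, and 8 patterns were searched in them on both strands. A direct repeat of AGGTCA with 1 base between the copies, which receptors of the PPAR family are known to bind, was in 0 of 47 windows and in 0.0481% of the windows of all 27025 genes. With any base allowed at the fourth position of the first copy or of the second copy it was again in 0 of 47, against 0.115% and 0.167% of all genes. TNAAGGTCA and TCAAGGTCA, forms of the element of the estrogen-related receptors, were in 0 of 47, against 1.43% and 0.466%. Their core AAGGTCA was in 4.26% of the 47 windows and 5.38% of all, and AGGTCA, which lies within it, in 12.8% and 18.1%. GGGNGG was in 95.7% of the 47 windows and 70.1% of all. Acadm and Acadvl, both dehydrogenases of the first step, are printed because their windows hold AGGTCA, in capitals on either strand. The windows are chr3:153944594-153944893 for Acadm and chr11:70015379-70015678 for Acadvl, both on the minus strand (RefSeq, GRCm38.p6).
Acadm: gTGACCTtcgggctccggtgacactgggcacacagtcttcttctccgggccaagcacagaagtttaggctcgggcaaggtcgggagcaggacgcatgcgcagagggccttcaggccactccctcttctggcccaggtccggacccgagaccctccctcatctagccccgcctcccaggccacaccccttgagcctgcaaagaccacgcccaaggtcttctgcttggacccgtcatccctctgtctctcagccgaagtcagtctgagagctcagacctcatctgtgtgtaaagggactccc
Acadvl: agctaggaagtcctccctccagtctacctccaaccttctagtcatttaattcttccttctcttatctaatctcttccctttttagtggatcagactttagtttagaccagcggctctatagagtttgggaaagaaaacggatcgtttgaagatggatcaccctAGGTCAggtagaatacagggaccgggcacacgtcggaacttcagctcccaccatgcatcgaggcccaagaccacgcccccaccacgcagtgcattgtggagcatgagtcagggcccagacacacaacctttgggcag
These matches describe letters only.

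The libraries differed in their content of heart muscle transcripts. The summed level of 11 cardiomyocyte markers, all of them in the table, ran between 5600.0 and 13151 RPKM in P1 libraries. In P3 it was 6040.2 RPKM in replicate 1, and 1375, 734 and 668 RPKM in replicates 2, 3 and 4. In adult libraries it ran between 17512 and 34188 RPKM. P3 replicates 2 to 4 thus stood below every other library in the markers of the labelled cell type. The 9 of 12 endothelial markers in the table summed to 210.1 to 481 RPKM in P1, 706 to 1668 RPKM in P3 and 2.74 to 215 RPKM in adult libraries. The 5 of 9 fibroblast markers in the table summed to 164 to 1408, 379 to 809.9 and 1.13 to 78.3 RPKM at P1, P3 and adult. P1 replicate 1 stood apart with the 1408 RPKM, against 164, 199.7 and 172 RPKM in replicates 2 to 4. It also had the lowest cardiomyocyte marker sum of its stage, 5600.0 RPKM. The 4 of 8 mural markers summed to 121 to 513, 437 to 719.8 and 31.8 to 120.3 RPKM at P1, P3 and adult. Fabp4, which was in the table as 1 of 6 adipocyte markers, had 126 to 383, 449 to 1219.9 and 6.37 to 1065 RPKM. Of 10 immune and 6 erythroid markers 0 were in the table, and they were not analysed here. In bulk libraries fewer cells of a type and less RNA per cell cannot be told apart. The part that these marker levels play in the results was not tested, so results against P3 are also given without P3 replicates 2 to 4 and with each library scaled to its cardiomyocyte marker sum. Both alternatives were chosen after the marker sums had been seen.

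A change below is the log2 difference of RPKM + 0.5 between group means, and a call is an adjusted p under 0.05 (limma, Benjamini-Hochberg over all 9389 genes tested) with a change of at least 1 in size. The median gene moved too: its change was -1.36 for adult minus P1, -1.48 for adult minus P3 and 0.087 for P3 minus P1. Changes are therefore also given after each library was centred on its median gene. The read totals behind the RPKM were estimated at 10380000 to 11120000 reads in P1, 9350000 to 13430000 reads in P3 and 6200000 to 16960000 reads in adult libraries.

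**Figure D1:**
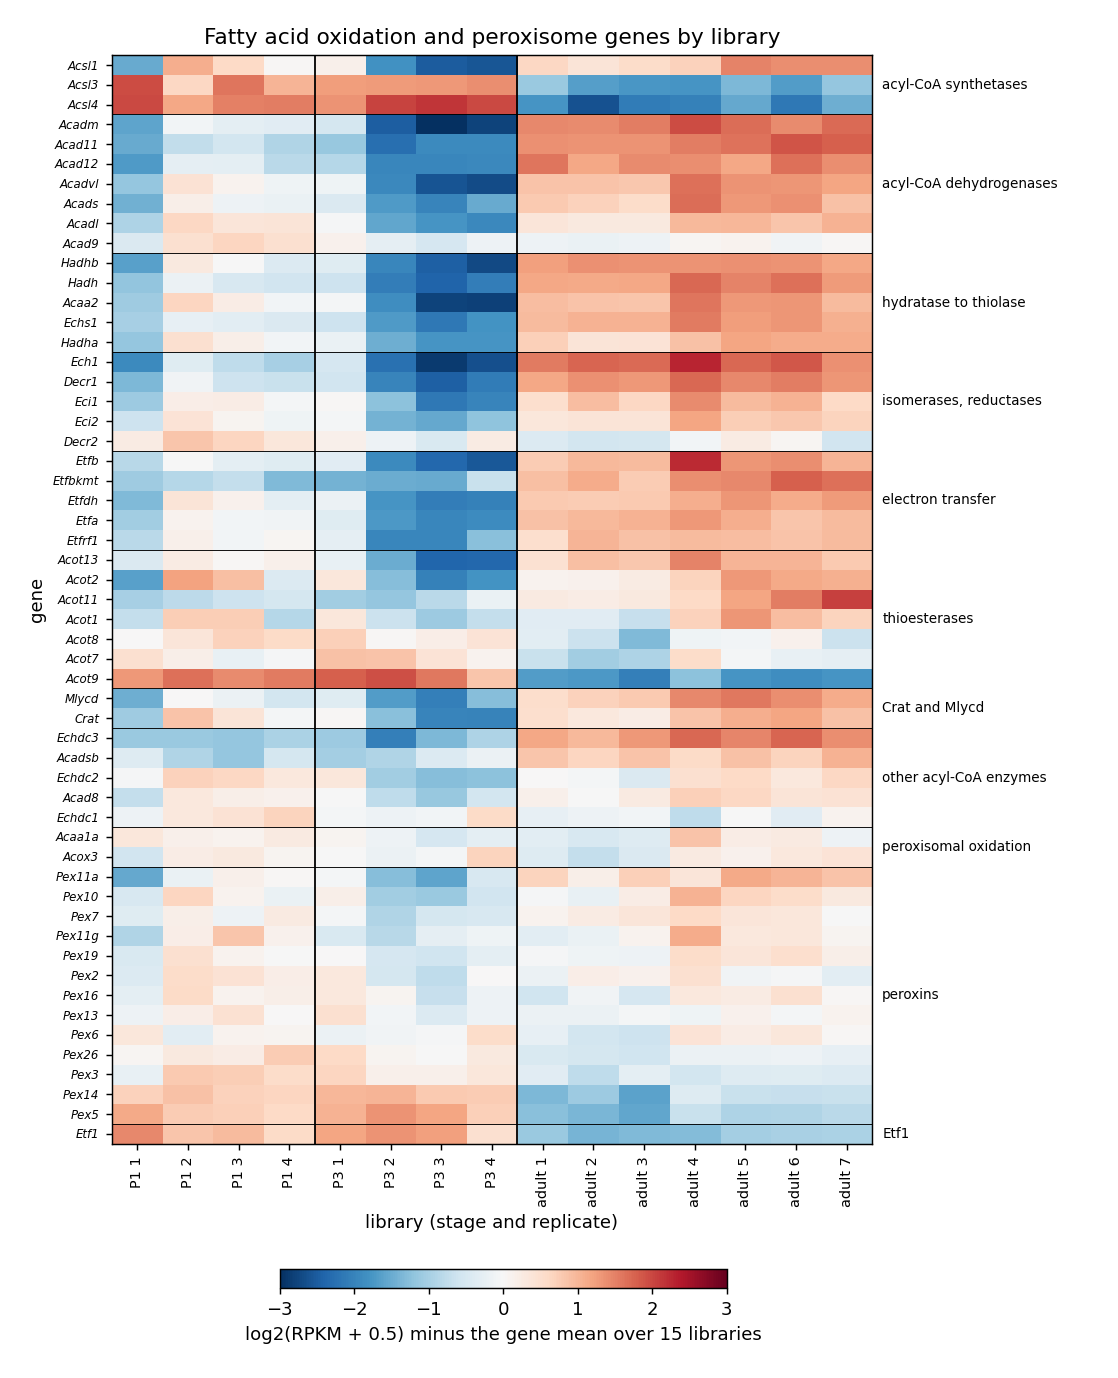
Levels of 55 of the 59 genes (rows, grouped by role) in 15 libraries (columns, by stage and replicate), as log2(RPKM + 0.5) minus the mean of each gene. Most genes of the mitochondrial steps are high in adult libraries and low in P3 replicates 2 to 4 on the deposited scale, although their changes for adult minus P3 are below 0 when libraries are scaled to their cardiomyocyte markers. Acsl3, Acsl4 and Acot9 are low in adult libraries.

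Between adult and P1 cells 22 of the 59 genes were called higher in adult (37.3%), where 4.32% of all tested genes were. Another 8 were called lower (13.6%), against 62.7% of all tested genes, and 29 were not called. The median change of the 59 genes was 0.38, which is 1.75 above that of the median gene. Adult and P1 libraries did not overlap for 23 genes that were higher in adult and 11 that were lower, against 4.86% and 65.1% of all tested genes. With libraries centred on the median gene 45 were called higher and 3 lower, where 21.6% and 13.7% of all tested genes were. Scaled to cardiomyocyte markers, 5 were called higher and 23 lower, against 1.07% and 85.5% of all tested genes, and 18 of the 59 changed sign. All 22 higher calls were kept under median centring, quantile normalization, median-of-ratios scaling and equal RPKM sums, and of the 8 lower calls 3 were kept under all 4. These 4 scalings all raise adult values against P1: the median gene went from -1.36 to 0.087, -0.072, -0.035 and -0.77. Keeping the higher calls under them is therefore no separate support.

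Between adult and P3 cells 30 of the 59 genes were called higher in adult (50.8%) and 8 lower (13.6%), against 9.16% and 62.7% of all tested genes. The median change was 1.02, which is 2.496 above the median gene. The groups did not overlap for 29 genes higher in adult and 10 lower, against 7.99% and 64.3% of all tested genes. With median-centred libraries 47 were called higher and 3 lower, against 27.1% and 19.1%. Without P3 replicates 2 to 4, which leaves 1 P3 library that is assumed to vary like the other groups, 21 were called higher and 10 lower, against 4.67% and 64.1% of all tested genes. Of the 17 genes of the dehydrogenase, hydratase to thiolase and electron transfer roles 14 were then called higher and 0 lower, against 16 and 0 with all P3 libraries. Scaled to cardiomyocyte markers the comparison turned: 0 of the 59 were called higher and 47 lower, where 0.32% and 97.4% of all tested genes were, and 41 genes changed sign. By limma on this scale all 59 changes were below 0. Their median was -2.38, and that of the 17 genes -0.95, where the median gene was at -4.95. The direction of most of these genes between adult and P3 cells therefore depends on whether a level is read as deposited or relative to cardiomyocyte markers. The markers are no fixed reference. For adult minus P1 the 11 markers changed by -1.58 to 3.07 as deposited, with 6 called higher and 1 lower, against 4.32% and 62.7% of all tested genes. Stage and cell content cannot be told apart in their sum, so this scaling is no correction for cell content alone.

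Among the genes of fatty acid activation the isoforms moved apart. Acsl1, the main long-chain acyl-CoA synthetase of the heart, had 20.5, 128, 91.3 and 60.9 RPKM in P1 libraries, 66.8, 16.6, 10.2 and 9.699 RPKM in P3 libraries, and 78.1, 96.4 and 167 RPKM as the lowest, median and highest in adult libraries. Adult and P1 libraries overlapped, and the change of 0.87 ± 0.49 (SE) was not called (limma, adjusted p = 0.10), although it was called with median-centred libraries (2.32) and without P1 replicate 2 (1.22). Against P3 the change was 2.605 ± 0.49, but an uncalled 0.77 without P3 replicates 2 to 4, and -1.31 under the marker scaling.

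Acsl4, a synthetase that prefers arachidonic acid, had 22.2, 12.4, 15.9 and 16.2 RPKM in P1 libraries, 14.1, 22.7, 24.7 and 22.1 RPKM in P3 libraries, and 0.444, 0.905 and 1.57 RPKM as the lowest, median and highest in adult libraries. No adult library came near a neonatal one. Acsl4 changed by -3.51 ± 0.23 in adult against P1 cells (limma, adjusted p = 3.8e-10) and by -3.82 ± 0.23 against P3 (6.7e-11). Acsl3, a synthetase of the endoplasmic reticulum and lipid droplets, had 4.85 to 13.03 RPKM in P1, 7.83 to 8.73 RPKM in P3 and 0.524 to 1.11 RPKM in adult libraries. Its changes were -2.79 ± 0.22 and -2.802 ± 0.22, and its exons overlap those of Utp14b on the same strand, so the reads may be shared. For Acsl3 and Acsl4 both falls were also called under all 5 other scalings, the marker scaling included. Of all tested genes 62.7% were called lower in each adult comparison as deposited, and 13.7% and 19.1% with median-centred libraries. Under the marker scaling 85.5% and 97.4% were, so a lower call there says little.

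The acyl-CoA dehydrogenases of the first step were mostly higher in adult cells on the deposited scale. Of 7 genes 5 were called higher than in P1 and 6 than in P3, against 4.32% and 9.16% of all tested genes. But under the marker scaling all 7 changes against P3 were below 0 and 3 were called lower, where 97.4% of all tested genes were. With median-centred libraries 7 of 7 were called higher in both comparisons, against 21.6% and 27.1% of all tested genes. Acadm, the medium-chain enzyme, had 35.2, 99.4, 85.8 and 84.3 RPKM in P1 libraries, 73.7, 18.7, 12.2 and 15.04 RPKM in P3 libraries, and 282, 307 and 413 RPKM as the lowest, median and highest in adult libraries. Every adult library exceeded every neonatal one. Its change was 2.17 ± 0.38 against P1 (limma, adjusted p = 3.7e-05) and 3.804 ± 0.38 against P3 (2.7e-08). Without P3 replicates 2 to 4 the change against P3 was 2.12 and still called, whereas under the marker scaling it was 0.93 against P1 and -0.12 against P3, neither called.

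Acad11 and Acad12, less studied relatives of these enzymes, were of lower level. Acad11 averaged 4.93 ± 1.42 RPKM at P1, 2.48 ± 1.07 RPKM at P3 and 29.4 ± 4.72 RPKM in adults (SD, n = 4, 4 and 7), with changes of 2.49 against P1 and 3.37 against P3. The exons of Acad11 overlap those of Gm28305 on the same strand and of Ackr4 on the other, so the reads may be shared. Acad12 averaged 1.91 ± 0.933 RPKM at P1, 0.771 ± 0.560 RPKM at P3 and 9.61 ± 1.37 RPKM in adults, with changes of 2.16 and 3.07. Both kept a call against P1 under the marker scaling, at 1.27 and 1.02, but were at -0.32 and -0.11 against P3.

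The enzymes for longer chains had smaller changes than Acadm. Acadvl, the very-long-chain dehydrogenase, had 53.7, 163, 129 and 111 RPKM in P1 libraries, 110.1, 31.05, 19.6 and 18.1 RPKM in P3 libraries, and 211, 275 and 377 RPKM as the lowest, median and highest in adult libraries. The adult libraries lay above all others, with changes of 1.33 ± 0.40 and 2.98 ± 0.40, and its exons overlap those of Dvl2 on the other strand. Acadl, the long-chain enzyme, was the dehydrogenase of highest mean level over all libraries, although Acadm was higher in the adult mean (324 against 302 RPKM). Acadl had 96.6, 280.5, 234 and 241 RPKM in P1 libraries, 179, 61.99, 53.2 and 47.7 RPKM in P3 libraries, and 224, 328 and 378 RPKM as the lowest, median and highest in adult libraries. Adult and P1 libraries overlapped for Acadl, and its change of 0.57 ± 0.36 was not called on the deposited scale, but with median-centred libraries it was called at 2.02. Against P3 it was 2.01, or an uncalled 0.72 without P3 replicates 2 to 4. Acads, for short chains, was called higher against both stages at 1.44 and 2.44, and Acad9, an assembly factor of respiratory complex I, was called in neither comparison on the deposited scale, at -0.35 and 0.15.

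Of the 5 genes that carry the later steps, from hydratase to thiolase, 4 were called higher in adult than in P1 and 5 than in P3. The shares of all tested genes were 4.32% and 9.16%. But under the marker scaling all 5 changes against P3 were below 0 and 2 were called lower, where 97.4% of all tested genes were. With median-centred libraries 5 of 5 were called higher in both comparisons, against 21.6% and 27.1% of all tested genes. Hadhb had 62.6, 237, 193 and 146 RPKM in P1 libraries, 151, 49.2, 35.1 and 29.2 RPKM in P3 libraries, and 436, 495 and 505 RPKM as the lowest, median and highest in adult libraries. The adult libraries were close together, with a mean of 483 ± 25.6 RPKM (SD, n = 7), and all lay above the neonatal ones. Its change was 1.75 ± 0.38 against P1 (limma, adjusted p = 0.00038) and 3.18 ± 0.38 against P3 (3.3e-07). Under the marker scaling these were 0.51 and -0.76, neither called.

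Its partner Hadha had 46.9, 148, 119 and 99.9 RPKM in P1 libraries, 92.4, 37.8, 30.9 and 30.5 RPKM in P3 libraries, and 139, 196 and 243 RPKM as the lowest, median and highest in adult libraries. Its change of 0.98 ± 0.33 against P1 missed the threshold of size, passed it in 6 of the 15 fits that left out 1 library, and was 2.13 against P3. The exons of Hadha overlap those of Garem2 on the other strand. Hadh, the dehydrogenase for shorter chains, had 30.3 to 61.6 RPKM in P1, 12.8 to 44.6 RPKM in P3 and 153 to 229 RPKM in adult libraries, with changes of 1.97 ± 0.29 and 3.17 ± 0.29. Echs1, the short-chain hydratase, was called higher against both stages at 1.68 and 2.75. Acaa2, the mitochondrial thiolase, had 62.9, 209, 155 and 126 RPKM in P1 libraries, 128, 36.2, 19.00 and 18.6 RPKM in P3 libraries, and 238, 257 and 407 RPKM as the lowest, median and highest in adult libraries. Its call at 1.19 ± 0.42 against P1 was lost without P1 replicate 1 (0.85).

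Electron transfer genes were called higher in adult than in each neonatal stage in 5 of 5 cases on the deposited scale. The shares of all tested genes were 4.32% against P1 and 9.16% against P3. Under the marker scaling all 5 changes against P3 were below 0 and 3 were called lower, where 97.4% of all tested genes were. Etfa and Etfb encode the subunits of the electron transfer flavoprotein. Etfa had 61.9 to 136 RPKM in P1, 32.6 to 98.4 RPKM in P3 and 228 to 313 RPKM in adult libraries. Etfb had 76.4 to 136 RPKM in P1, 23.2 to 107 RPKM in P3 and 233 to 645 RPKM in adult libraries, the highest being adult replicate 4. The exons of Etfb overlap those of Gm45233 on the same strand, so the reads may be shared. The changes of Etfa and Etfb against P1 were 1.29 ± 0.29 and 1.61 ± 0.36, and against P3 2.49 and 3.03. Etfdh, the oxidoreductase that passes the electrons on to ubiquinone, was called at 1.297 and 2.52, and Etfrf1, a regulator of the flavoprotein, at 1.04 and 2.23. Without P1 replicate 1 both calls against P1 were lost, at 0.95 and 0.83. Etfbkmt, a methyltransferase that acts on Etfb protein, had 0.631 to 1.21 RPKM in P1, 0.492 to 1.27 RPKM in P3 and 4.29 to 9.302 RPKM in adult libraries, with changes of 2.29 ± 0.22 and 2.57 ± 0.22. Its lowest library held 8 reads, so its neonatal level is imprecise.

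Auxiliary enzymes for unsaturated chains moved unevenly, with 3 of 5 called higher in adult than in P1 and 4 of 5 than in P3. The shares of all tested genes were 4.32% and 9.16%. Against P3 the marker scaling put all 5 below 0, where the median gene was at -4.95. Ech1, a dienoyl-CoA isomerase, had the largest rise of the 59 genes against both stages on the deposited scale. Its levels were 42.05, 124, 93.02 and 79.8 RPKM in P1 libraries, 112, 33.3, 21.2 and 25.1 RPKM in P3 libraries, and 413, 526.4 and 769.8 RPKM as the lowest, median and highest in adult libraries. All adult libraries lay above all neonatal ones, with changes of 2.75 ± 0.37 (limma, adjusted p = 1.8e-06) and 3.81 ± 0.37 (2.1e-08). Under the marker scaling these were 1.51, still called, and -0.13. Decr1, the mitochondrial dienoyl-CoA reductase, had 13.4 to 32.5 RPKM in P1, 6.04 to 23.3 RPKM in P3 and 78.8 to 117 RPKM in adult libraries, with changes of 2.098 and 3.18. Decr2, its peroxisomal counterpart, had 3.99 to 6.197 RPKM in P1, 2.23 to 3.95 RPKM in P3 and 2.02 to 3.98 RPKM in adult libraries and was not called, at -0.78 and -0.21 on the deposited scale and 0.67 and 1.34 with median-centred libraries, of which the value against P3 was called. Eci1 and Eci2, isomerases that shift a double bond, were at 1.05 and an uncalled 0.71 against P1 (called at 2.16 with median-centred libraries), and Eci1 lost its call without P1 replicate 1 (0.75) or adult replicate 4 (0.96).

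**Figure D2:**
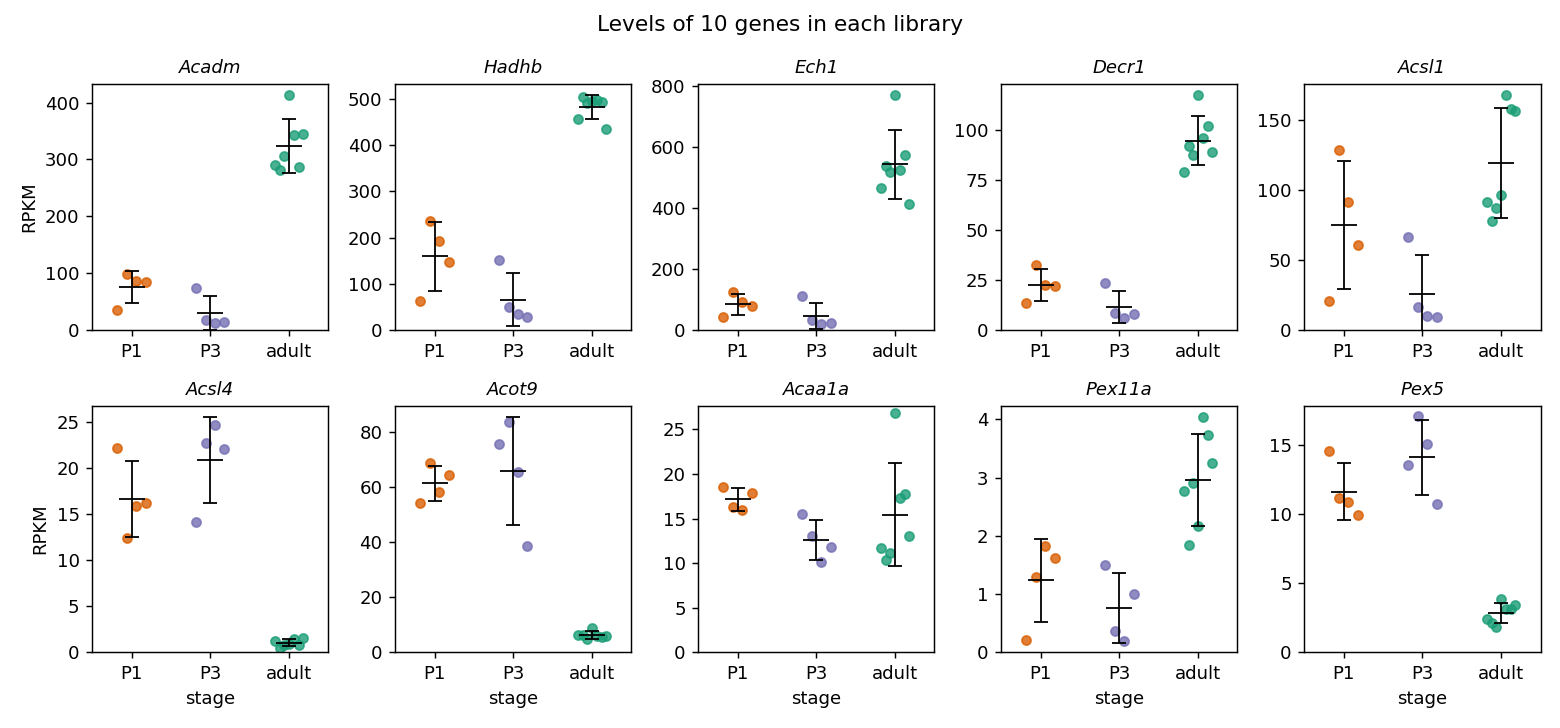
RPKM of 10 genes in each library by stage (points), with the mean and SD (black; n = 4, 4 and 7). Adult points of Acadm, Hadhb, Ech1 and Decr1 lie above all P1 and P3 points on this scale, although their mean changes against P3 are below 0 and uncalled under the marker scaling. Those of Acsl4, Acot9 and Pex5 lie below, Acsl1 overlaps P1, and Acaa1a overlaps P1 and P3.

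The thioesterases, which split acyl-CoA back to fatty acid and CoA, went both ways. Of 7 genes 1 was called higher and 1 lower in adult than in P1, and 3 and 1 than in P3. Of all tested genes 4.32% and 9.16% were called higher against P1 and P3, and 62.7% lower against each. The marker scaling left 0 thioesterases higher, where 1.07% and 0.32% of all tested genes were. Median centring gave 4 higher and 1 lower in both comparisons, against 21.6% and 13.7% of all tested genes for P1 and 27.1% and 19.1% for P3. Acot9, a mitochondrial thioesterase, had 54.2, 68.8, 58.1 and 64.3 RPKM in P1 libraries, 75.6, 83.8, 65.5 and 38.7 RPKM in P3 libraries, and 4.79, 6.02 and 8.89 RPKM as the lowest, median and highest in adult libraries. The groups were far apart, and the changes of -3.21 ± 0.21 and -3.26 ± 0.21 were also called under all 5 other scalings. Under the marker scaling, however, 85.5% and 97.4% of all tested genes were called lower, against 13.7% and 19.1% with median-centred libraries. Acot13, the thioesterase of highest mean level over all libraries but below Acot9 at P3 (65.9 RPKM), averaged 123 ± 23.9 RPKM at P1, 48.4 ± 38.2 RPKM at P3 and 236 ± 55.1 RPKM in adults. It had an uncalled change of 0.93 against P1, called at 2.38 with median-centred libraries, and a called one of 2.53 against P3 that was -1.41 under the marker scaling. Acot1 and Acot2 are near-identical copies, so the split of reads between them is uncertain.

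Among genes beside the spiral, Crat, which moves acetyl groups between CoA and carnitine, averaged 39.5 ± 19.8 RPKM at P1, 16.6 ± 12.99 RPKM at P3 and 59.2 ± 15.02 RPKM in adults. It was not called against P1 on the deposited scale (0.69) but was with median-centred libraries (2.15), and against P3 it was called at 2.02, but was an uncalled 0.68 without P3 replicates 2 to 4 and -1.87 under the marker scaling. Mlycd, which degrades the inhibitor malonyl-CoA, averaged 8.41 ± 3.42 RPKM at P1, 4.78 ± 2.89 RPKM at P3 and 25.9 ± 7.36 RPKM in adults and was called at 1.62 and 2.42. Acadsb, a dehydrogenase of branched chains from isoleucine, averaged 8.79 ± 2.17 RPKM at P1, 9.73 ± 2.85 RPKM at P3 and 25.99 ± 2.96 RPKM in adults, with changes of 1.53 and 1.41. Echdc3 averaged 0.810 ± 0.0838 RPKM at P1, 0.638 ± 0.344 RPKM at P3 and 6.93 ± 1.44 RPKM in adults, with changes of 2.48 and 2.74, from as few as 3 reads in a library.

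Peroxisomal oxidation genes gave 0 of 3 calls in any comparison by limma on the deposited scale, and 0 at an unadjusted p under 0.05. With median-centred libraries 3 of 3 were called higher in adult than in each neonatal stage, and with the marker scaling 2 and 3 were called lower. Of all tested genes 21.6% and 27.1% were called higher with median-centred libraries, and 85.5% and 97.4% lower with the marker scaling. Acaa1a, the peroxisomal thiolase, had 18.6, 16.3, 15.9 and 17.9 RPKM in P1 libraries, 15.5, 13.1, 10.2 and 11.8 RPKM in P3 libraries, and 10.4, 13.1 and 26.8 RPKM as the lowest, median and highest in adult libraries. Adult libraries overlapped both neonatal stages. Its changes were -0.22 ± 0.23 and 0.22 ± 0.23 as deposited, and 1.24 and 1.77 with median-centred libraries.

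The adult libraries fell into sets. Acsl1 had 160.5 ± 6.02 RPKM in adult replicates 5 to 7 and 88.4 ± 7.805 RPKM in adult replicates 1 to 4 (SD, n = 3 and 4). Of the 59 genes 11 were higher in each of replicates 5 to 7 than in each of 1 to 4 and 0 were lower, against 23.7% and 1.35% of all tested genes. The labels name no batch, but the estimated read totals of the sets stand apart as well, at 16590000 to 16960000 reads and 6200000 to 10950000 reads. The part of this difference in the results was not tested beyond fits on each set alone.

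Of 16 peroxins 1 was called higher (6.25%) and 4 lower (25%) in adult than in P1, and the same counts were found against P3. Of all tested genes 4.32% and 9.16% were called higher against P1 and P3, and 62.7% lower against each. But with median-centred libraries 10 peroxins were called higher and 0 lower in each comparison. The shares of all tested genes were then 21.6% and 13.7% against P1, and 27.1% and 19.1% against P3. Pex5, the receptor that imports most peroxisomal enzymes, had 14.6, 11.2, 10.9 and 9.904 RPKM in P1 libraries, 13.6, 17.1, 15.1 and 10.7 RPKM in P3 libraries, and 1.84, 3.12 and 3.83 RPKM as the lowest, median and highest in adult libraries. The adult libraries lay below all others, with changes of -1.88 ± 0.20 and -2.14 ± 0.20. Pex14, which docks that receptor at the membrane, averaged 11.4 ± 0.860 RPKM at P1, 12.8 ± 1.195 RPKM at P3 and 3.397 ± 1.096 RPKM in adults, with changes of -1.66 and -1.82. With median-centred libraries the changes of Pex5 (-0.42 and -0.59) and Pex14 (-0.21 and -0.27) were not called. Pex19, a chaperone of peroxisomal membrane proteins and the peroxin of highest mean level at each stage, averaged 19.9 ± 5.33 RPKM at P1, 15.1 ± 3.095 RPKM at P3 and 22.1 ± 4.601 RPKM in adults and was not called on the deposited scale, but with median-centred libraries it was called higher in adults at 1.61 and 2.07. Pex11a, a proliferation factor, had 0.216, 1.29, 1.82 and 1.62 RPKM in P1 libraries, 1.51, 0.361, 0.189 and 0.999 RPKM in P3 libraries, and 1.85, 2.904 and 4.04 RPKM as the lowest, median and highest in adult libraries. Its change of 1.09 ± 0.32 against P1 lost its call without P1 replicate 1 (0.71), and its lowest library held 2 reads. Etf1, a translation termination factor that matches the rule by name alone, was called lower in adults at -2.11 and -2.22, and was not called with median-centred libraries (-0.65 and -0.67).

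**Figure D3:**
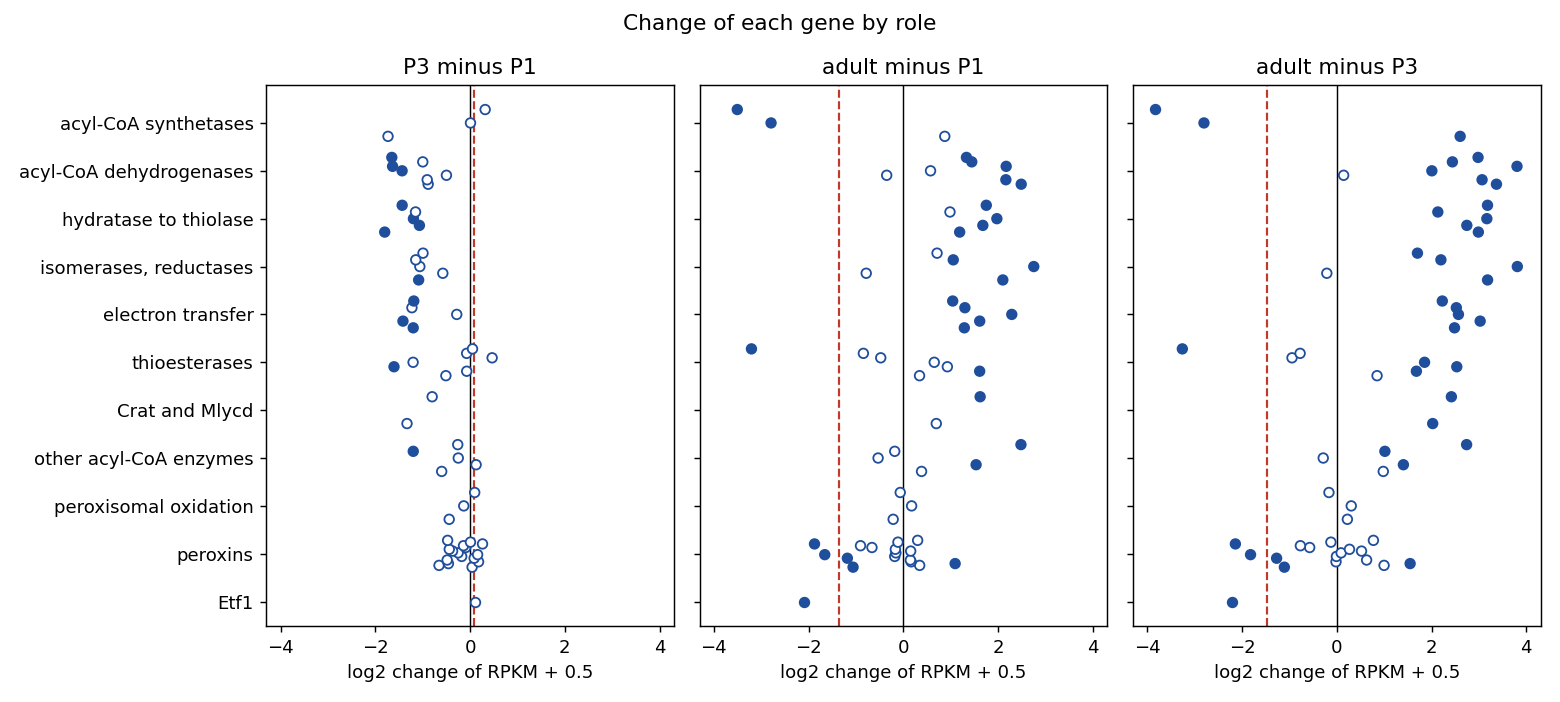
Change of each gene (log2 of RPKM + 0.5, horizontal axis) by role for P3 minus P1, adult minus P1 and adult minus P3; filled points were called, and the red dashed line marks the median of all 9389 genes tested. The 17 genes of the mitochondrial steps and electron transfer lie right of that line in both adult comparisons and left of it for P3 minus P1, and their sign in both comparisons with P3 turns under the marker scaling.

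Between P3 and P1 cells 13 of the 59 genes were called lower in P3 (22.0%) and 0 higher on the deposited scale, against 5.31% and 1.4% of all tested genes. Limma gave 0 higher at an unadjusted p under 0.05 too. The groups did not overlap for 0 genes higher in P3 and 2 lower, against 10.7% and 2.53% of all tested genes. Of the 13 calls 10 were among the 17 genes of the dehydrogenase, hydratase to thiolase and electron transfer roles. Acadm changed by -1.64 ± 0.43 (limma, adjusted p = 0.027), Acaa2 by -1.801 ± 0.48 (0.028) and Acadvl by -1.65 ± 0.45 (0.031). The level of Acadm in P3 replicate 1 lay within the P1 libraries, and those of the other P3 replicates below them.

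The 13 calls rest on which libraries enter. They became 0 without P1 replicate 2, 3 or 4 and without P3 replicate 2, 3 or 4, and 25 without P1 replicate 1 or P3 replicate 1. With P3 replicates 2 to 4 left out, 0 of 59 were called in either direction by limma, as were 0 of all 9389 genes tested, 0 of the 59 had an unadjusted p under 0.05, and the 17 genes changed by -0.41 to 0.11. With median-centred libraries 20 were called lower and 0 higher, against 7.54% and 1.18% of all tested genes. Scaled to cardiomyocyte markers the direction turned, with 57 of the 59 called higher in P3 and 0 lower, against 96.4% and 0.0639% of all tested genes.

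The summed level of the 17 mitochondrial genes is given beside the marker sum as a description. It was 619, 1701, 1399.98 and 1250.1 RPKM in P1 replicates 1 to 4. In P3 it was 1148 RPKM in replicate 1 and 389, 294 and 296 RPKM in replicates 2 to 4. In adults it ran between 2634 and 3972 RPKM. As a percentage of the cardiomyocyte marker sum it was 9.51 to 15.3% in P1, 19.0 to 44.3% in P3 and 11.6 to 15.3% in adult libraries. Adult and P1 libraries overlapped on this scale, and the 4 P3 libraries lay above both. As a share of all RPKM in the table the 59 genes took 0.410 to 0.882% in P1, 0.293 to 0.628% in P3 and 2.11 to 2.75% in adults.

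**Figure D4:**
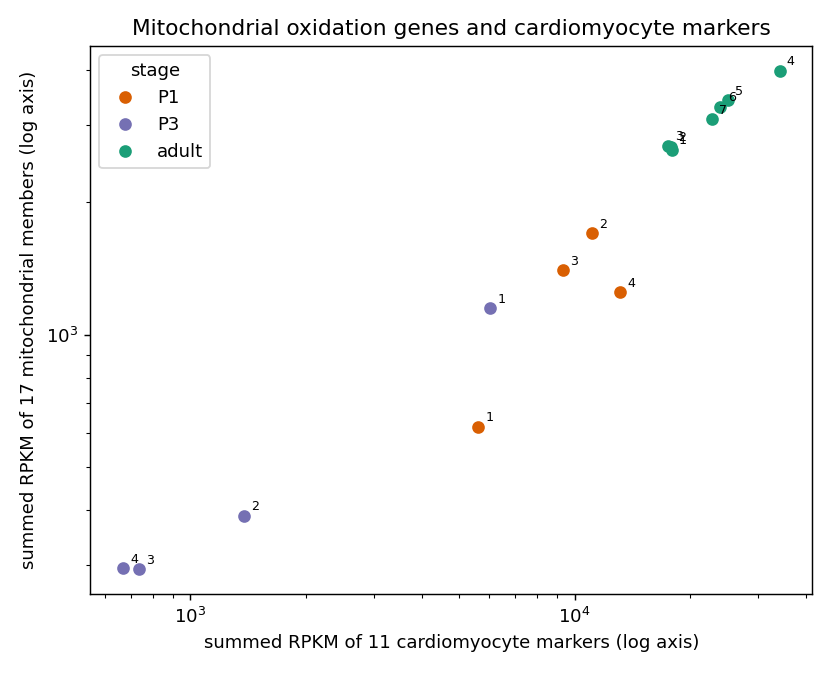
Summed RPKM of 17 mitochondrial members against summed RPKM of 11 cardiomyocyte markers, 1 point per library, numbered by replicate, on log axes. P3 replicates 2 to 4 lie at the low end of both axes, P3 replicate 1 lies within the range of the P1 libraries and the 7 adult libraries lie at the high end.

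Ratios of a pair of genes within a library do not depend on how libraries are scaled, but they may still vary with the cell content of a bulk library. In P3 replicates 1 to 4 the log2 ratio of Acaa2 to Acaa1a was 3.05, 1.47, 0.90 and 0.65. The cardiomyocyte marker sums of these libraries were 6040, 1375, 734 and 668 RPKM. The part of cell content in the ratios was not tested. For 10 pairs of subunits or related enzymes the log2 ratio was compared by two-sided exact permutation tests, adjusted over 30 tests (the smallest p is 0.003 for 7 against 4 libraries and 0.029 for 4 against 4). Of these 18 passed, 9 in each adult comparison. For P3 against P1 0 of 10 passed, and 0 had an unadjusted p under 0.05 in the exact permutation test. With P3 replicates 2 to 4 left out 8 of the 30 passed, as 7 libraries against 1 cannot reach a p that passes.

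The balance of the transcripts of the trifunctional protein subunits shifted towards Hadhb, and protein was not measured. The Hadha to Hadhb ratio was 0.402 ± 0.0982 in adult libraries, against 0.668 ± 0.0617 in P1 and 0.825 ± 0.182 in P3 libraries (SD, n = 7, 4 and 4). Adult libraries overlapped neither stage, with log2 differences of -0.77 against P1 (exact permutation, adjusted p = 0.012) and -1.05 against P3 (0.0065). The adult sets also differed in this log2 ratio, at -1.86 to -1.34 in replicates 1 to 4 and -1.11 to -0.92 in replicates 5 to 7. P1 libraries were at -0.697 to -0.416. The size of the shift therefore depends on the adult set, and the cause of the split was not tested. For Etfa and Etfb the differences of -0.33 and -0.55 did not pass (exact permutation, adjusted p = 0.2 and 0.062).

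The mitochondrial enzymes Decr1 and Acaa2 were higher relative to their peroxisomal counterparts in adult libraries. The Decr1 to Decr2 ratio was 36.8 ± 7.75 in adult libraries, against 4.49 ± 0.875 in P1 and 3.51 ± 1.96 in P3 libraries, with log2 differences of 3.03 and 3.503 (exact permutation, adjusted p = 0.0065 for both). The ratio of the thiolases Acaa2 to Acaa1a was 19.8 ± 2.66 in adult libraries, against 8.24 ± 4.02 in P1 and 3.63 ± 3.15 in P3 libraries. In both pairs adult libraries overlapped neither stage. Within mitochondria the Acadvl to Acadl ratio was 0.911 ± 0.102 in adult libraries, against 0.537 ± 0.0534 in P1 and 0.467 ± 0.116 in P3 libraries, also without overlap.

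The largest differences were between synthetases. The Acsl1 to Acsl4 ratio was 125 ± 44.4 in adult libraries, against 5.1996 ± 3.97 in P1 and 1.58 ± 2.104 in P3 libraries, and the log2 differences were 4.98 and 7.07 (exact permutation, adjusted p = 0.0065 for both). The Acsl1 to Acsl3 ratio was 166 ± 58.1 in adult libraries, against 11.6 ± 10.5 in P1 and 3.25 ± 3.55 in P3 libraries. Eci1 to Eci2 passed at 0.34 and 0.49 with overlapping groups.

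**Figure D5:**
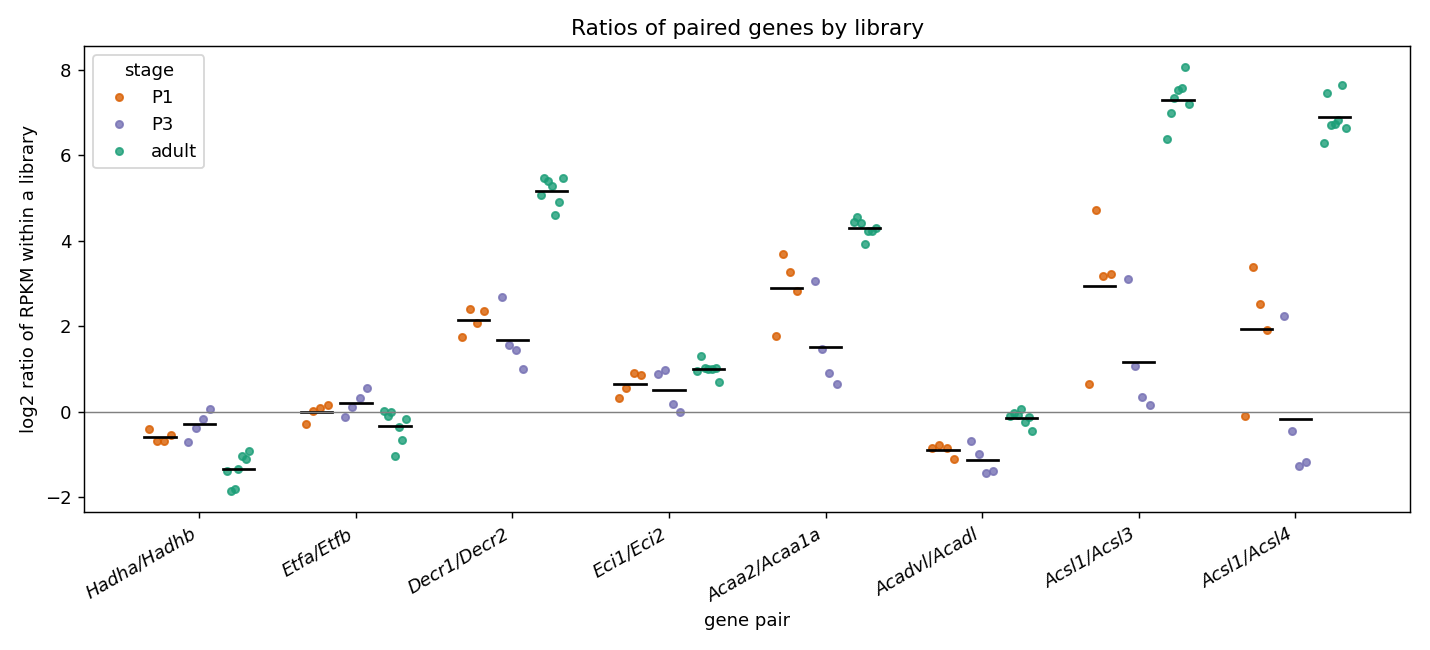
Log2 ratio of RPKM within each library for 8 of the gene pairs, by stage, with group means as black bars. Adult points lie apart from P1 and P3 for Hadha/Hadhb, Decr1/Decr2, Acaa2/Acaa1a, Acadvl/Acadl, Acsl1/Acsl3 and Acsl1/Acsl4.

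Genes around the pathway moved in both directions on the deposited scale, but few were called lower with median-centred libraries. The shares of all tested genes called higher and lower in adult than in P1 were 4.32% and 62.7% as deposited, 21.6% and 13.7% with median-centred libraries and 1.07% and 85.5% under the marker scaling. Of 14 genes of fatty acid uptake and the carnitine shuttle, 3 were called higher and 4 lower in adult than in P1, against 9 and 1 with median-centred libraries and 1 and 5 under the marker scaling. In adult against P3 the counts were 6 and 5 as deposited, 9 and 2 with median centring and 0 and 11 with the marker scaling. The shares of all tested genes in these fits were 9.16% and 62.7%, 27.1% and 19.1%, and 0.32% and 97.4%. Cd36, the fatty acid translocase, averaged 221 ± 21.04 RPKM in adult cells, against 45.2 ± 18.7 RPKM in P1 cells, a change of 2.39. Fabp5, a fatty acid binding protein that endothelial cells are known to express, averaged 10.99 ± 15.03 RPKM in adult cells, against 169.9 ± 127 RPKM in P1 cells, a change of -4.601 that went with the lower endothelial markers of adult libraries, and the part of those cells in it was not tested. Fabp3, the heart isoform, averaged 760.4 ± 322 RPKM at P1, 252 ± 334 RPKM at P3 and 2776 ± 775 RPKM in adults, with a change of 4.31 against P3 and -2.37 for P3 minus P1. Without P3 replicates 2 to 4 these were 1.85, still called, and an uncalled 0.089, and under the marker scaling 0.35 and 0.34, neither called.

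A further list of 16 genes held regulators together with other lipid genes such as Plin5 and Angptl4. Of these 16 genes 5 were called higher and 3 lower in adult than in P1. The counts were 8 and 0 with median-centred libraries and 2 and 10 under the marker scaling. Plin5, a lipid droplet coat protein, averaged 36.3 ± 12.4 RPKM in adult cells, against 0.881 ± 0.608 RPKM in P1 cells, a change of 4.76. Angptl4, an inhibitor of lipoprotein lipase, averaged 2.79 ± 2.72 RPKM in adult cells, against 9.26 ± 7.59 RPKM in P1 cells, a change of -1.501 that was an uncalled -0.050 with median-centred libraries. Esrrg, an estrogen-related receptor, changed by -2.21 for P3 minus P1, by an uncalled -1.01 without P3 replicates 2 to 4 and by an uncalled 0.026 under the marker scaling. Of 31 other peroxisomal genes 7 were called higher and 7 lower in adult than in P1, against 20 and 1 with median-centred libraries and 3 and 16 under the marker scaling. Ephx2, an epoxide hydrolase, averaged 60.3 ± 17.9 RPKM in adult cells, against 3.91 ± 1.67 RPKM in P1 cells, a change of 3.83. Far1, which makes fatty alcohols for ether lipids, averaged 1.82 ± 0.421 RPKM in adult cells, against 15.8 ± 2.78 RPKM in P1 cells, a change of -2.81. Phyh, of phytanic acid oxidation, changed by -1.62 for P3 minus P1, by an uncalled 0.13 without P3 replicates 2 to 4, and was called higher in P3 at 1.04 under the marker scaling.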

How the data were processed

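Gene expression was measured by RNA-seq in 15 libraries. The authors deposited 1 table of RPKM values with 1 column per library, and its lowest value is 0.100 RPKM. HISAT2, Partek 6.6 and mm10 appear in the submitters' processing notes. Annotation, counting options and strand are not stated in the sources available, so genes whose exons overlap those of another gene are uncertain: 5 members do on the same strand and 16 on the opposite strand (GENCODE). Among the genes described above, Acad9, Acad11, Acsl3 and Etfb overlap on the same strand. On the opposite strand Acad11, Acadvl, Crat, Eci2, Etfrf1, Hadha and Pex14 do.

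In 84.6% of genes the RPKM steps gave whole reads (relative tolerance 3e-05; 0.0% when values were changed at random by 1%). Reads were recovered for 39 of the 59 members, 6 of which had under 10 reads in a library.

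Genes with at least 1 RPKM in at least 4 libraries entered limma 3.58.1 (R 4.3.3) as log2(RPKM + 0.5), with 1 coefficient per stage and a mean trend. Fold changes on this scale understate low genes. In simulated data a change of 1.5 was called for 91.0%, 89.5% and 86.0% of planted genes for adult minus P1, adult minus P3 and P3 minus P1. The simulated noise was independent between genes and 9189 genes were left unchanged. These shares therefore do not cover differences that many genes of a library share. Ratios of gene pairs were compared by exact permutation (Python 3.11.15).

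Members and lists were chosen with earlier results of these data known. Members named were the 8 largest rises and 6 largest falls of each adult comparison and the 6 largest of each direction for P3 minus P1, all called and without overlap of the groups, together with the paired genes and the highest gene of each role. Of other lists the called gene of largest change in each direction was named. Results of 4 members, and of the 2 tested pairs that hold any of them, enter the counts but are not reported here one by one. Acad9, Acads, Acot1, Acot2, Echs1, Etfdh, Etfrf1 and Mlycd were named after their values were seen. The separate role of Etf1, the printed promoters, and the alternatives that scale to markers or leave out P3 replicates 2 to 4 were also chosen after seeing the data. Other alternatives were pseudocounts, filters, scalings, adult sets, a replicate block and leaving out each library.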

Additional observations from a re-analysis of the deposited data

Results flagged for a closer look

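In each of 117 groups of libraries, 1 gene or gene pair in 1 stage each, the gap of the highest or lowest library to the others was compared with Dixon's 95% critical value. Chance marks about 1 group in 20, and 17 of the 117 were marked. Of these 14 were marked through P3 replicate 1, whose cardiomyocyte marker sum was also the highest of its stage. The groups share libraries and the 14 marks describe 1 library, so the 17 cannot be set against the chance rate. P3 replicate 1 had 128 RPKM of Acaa2 (18.6 to 36.2 RPKM in the other P3 libraries), 1.61 RPKM of Acad12 (0.489 to 0.493 RPKM in the other P3 libraries) and 179 RPKM of Acadl (47.7 to 61.99 RPKM in the other P3 libraries). Its level was 73.7 RPKM of Acadm (12.2 to 18.7 RPKM in the other P3 libraries), 110.1 RPKM of Acadvl (18.1 to 31.05 RPKM in the other P3 libraries) and 66.8 RPKM of Acsl1 (9.699 to 16.6 RPKM in the other P3 libraries). The same library had 23.3 RPKM of Decr1 (6.04 to 8.497 RPKM in the other P3 libraries), 112 RPKM of Ech1 (21.2 to 33.3 RPKM in the other P3 libraries) and 34.1 RPKM of Eci2 (11.9 to 15.2 RPKM in the other P3 libraries). For further genes it had 98.4 RPKM of Etfa (32.6 to 38.3 RPKM in the other P3 libraries), 107 RPKM of Etfb (23.2 to 35.9 RPKM in the other P3 libraries) and 44.6 RPKM of Hadh (12.8 to 15.95 RPKM in the other P3 libraries). It also held 92.4 RPKM of Hadha (30.5 to 37.8 RPKM in the other P3 libraries) and 151 RPKM of Hadhb (29.2 to 49.2 RPKM in the other P3 libraries). Adult replicate 4, the adult library of lowest estimated depth, had 8.89 RPKM of Acot9 and 645 RPKM of Etfb, against 4.79 to 6.41 and 233 to 363 RPKM in the other adults. P3 replicate 4 had 1.27 RPKM of Etfbkmt, against 0.492 to 0.566 RPKM in the other P3 libraries.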

How the results depend on the processing

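With pseudocounts of 0.1 and 1 and with no filter on low values, members called higher and lower in the adult comparisons numbered 21 to 22 and 7 to 9 against P1, and 29 to 32 and 7 to 8 against P3. The excess of the member median over the median gene was 1.97 and 2.85 (adult minus P1 and adult minus P3) with a pseudocount of 0.1, 1.55 and 2.21 with 1, and 2.01 and 2.79 with adult replicates 5 to 7 only. With median-centred, quantile-normalized and median-of-ratios libraries 45, 45 and 46 members were higher and 3, 3 and 3 lower in adult than in P1, 47, 47 and 47 higher and 3, 4 and 3 lower in adult than in P3, and 20, 20 and 20 lower in P3 than in P1. Signs turned under median centring for Acaa1a 1.24 and Decr2 0.67 (adult minus P1), Decr2 1.34 (adult minus P3) and Acot9 -0.042 and Acsl3 -0.085 (P3 minus P1). Under median-of-ratios scaling they were Acaa1a 1.31 and Decr2 0.60, then Decr2 1.21, then Acot9 -0.041 and Acsl3 -0.080, and under quantile normalization Acaa1a 1.05 and Decr2 0.66, then Decr2 1.17, then Acsl3 -0.076. Equal RPKM sums gave Acaa1a 0.46 (adult minus P1) and Decr2 0.27 (adult minus P3). With adult replicates 1 to 4 only, 2 members were lower in P3 than in P1. The causes were not tested.

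Scaling to the cardiomyocyte marker sum gave 5 higher and 23 lower calls for adult minus P1, 0 and 47 for adult minus P3, and 57 and 0 for P3 minus P1. The excess of the member median was 1.55 for adult minus P1 and -0.93 for P3 minus P1. For adult minus P3 the member median was -2.38 and that of all tested genes -4.95. Among the 31 named genes the sign turned for 9 in adult minus P1: Acaa2 -0.054, Acadl -0.67, Acot13 -0.31, Acsl1 -0.36, Crat -0.53, Eci1 -0.18, Eci2 -0.52, Hadha -0.26 and Pex19 -1.04. It turned for 24 in adult minus P3: Acaa1a -3.62, Acaa2 -0.95, Acad11 -0.32, Acad12 -0.11, Acadl -1.94, Acadm -0.12, Acadsb -2.46, Acadvl -0.95, Acot13 -1.41, Acsl1 -1.31, Crat -1.87, Decr1 -0.70, Ech1 -0.13, Echdc3 -0.35, Eci1 -1.72, Eci2 -2.202, Etfa -1.46, Etfb -0.91, Etfbkmt -0.65, Hadh -0.75, Hadha -1.81, Hadhb -0.76, Pex11a -1.301 and Pex19 -3.35. It turned for 24 in P3 minus P1: Acaa1a 2.23, Acaa2 0.89, Acad11 1.59, Acad12 1.13, Acadl 1.27, Acadm 1.05, Acadvl 1.04, Acot13 1.09, Acsl1 0.94, Crat 1.34, Decr1 1.56, Decr2 1.96, Ech1 1.64, Echdc3 1.67, Eci1 1.54, Eci2 1.68, Etfa 1.502, Etfb 1.28, Etfbkmt 1.78, Hadh 1.49, Hadha 1.55, Hadhb 1.27, Pex11a 1.48 and Pex19 2.31.

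Without P3 replicates 2 to 4 the excess of the member median was 1.87 for adult minus P3 and -0.13 for P3 minus P1, 0 members were lower in P3 than in P1, and 8 pair tests passed. Acaa1a was at -0.074 for adult minus P3. For P3 minus P1 the sign turned for Acaa2 0.021, Acadm 0.054, Acadsb -0.26, Acadvl 0.057, Acsl1 0.11, Acsl3 -0.044, Acsl4 -0.20, Crat 0.013, Decr1 0.11, Ech1 0.499, Echdc3 0.0038, Eci1 0.22, Eci2 0.0038, Etfb 0.024, Hadhb 0.081 and Pex11a 0.34, and for the ratios Hadha/Hadhb -0.13, Etfa/Etfb -0.11, Decr1/Decr2 0.53, Eci1/Eci2 0.22, Acaa2/Acaa1a 0.17, Acadvl/Acadl 0.20, Acsl1/Acsl3 0.15 and Acsl1/Acsl4 0.32.

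Leaving out 1 library at a time, members called higher and lower ranged over 17 to 25 and 7 to 9 (adult minus P1), 29 to 33 and 8 to 9 (adult minus P3), and 0 to 0 and 0 to 25 (P3 minus P1). The excess of the member median ranged over 1.54 to 1.96, 2.34 to 2.74 and -0.83 to -0.52, and pair tests passed over 14 to 21. Changes near 0 crossed it: Acadsb -0.024 to 0.26, Acot9 -0.082 to 0.29, Acsl3 -0.22 to 0.23, Etf1 -0.015 to 0.31 and the Eci1/Eci2 ratio -0.31 to 0.024 (P3 minus P1) and Pex19 -0.011 to 0.30 (adult minus P1).

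Replicate numbers were compared through the deviations of each library from its stage mean across genes. For P1 and P3 libraries of numbers 1 to 4 these deviations had correlations of -0.51, -0.047, -0.25 and 0.37. For adult and P1 libraries they were 0.28, 0.12, 0.078 and -0.017, and for adult and P3 libraries -0.42, -0.071, -0.053 and 0.011. Deviations within a stage depend on each other and may vary with cell content, so these values cannot decide whether samples were paired. With the replicate block 0 members were lower in P3 than in P1, and 0 pair tests passed, as the smallest p of 4 paired differences cannot pass. With adult replicates 1 to 4 only and 5 to 7 only 0 pair tests passed as well. Depth limits the low genes: 6 members had under 10 reads in a library.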
